A study of Rattus norvegicus with 6 samples.

Results

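The members described here are the genes of the chemokine system, 34 chemokine ligands and 21 chemokine receptors, 55 of the 26981 features in a table of read counts from rat knee articular cartilage. They are all genes whose symbol in the table begins with Ccl, Cxcl, Cx3cl, Xcl, Ccr, Cxcr, Cx3cr, Xcr or Ackr followed by a digit. Male Sprague-Dawley rats, 6 weeks old at the start, were either left unloaded or had the right knee and ankle compressed axially under anaesthesia, and both groups carried the wild-type genotype. In the loaded group the limb was compressed every 2 days for 4 weeks, with 40 cycles of 10 s in a session. A cycle held the limb at 5 N for 9 s and peaked at 20 N for 0.5 s. RNA of the right knee was sequenced from 3 control and 3 loaded libraries. The label of the loaded libraries names excessive load without a size, which the design text gives, and the control libraries carry no treatment label and are identified by title. Whether the libraries of a group come from different animals is not stated, so a p-value here weighs a difference against the spread of libraries, which may be technical. The comparison asks which chemokine genes differ between loaded and unloaded knee cartilage.

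Chemokines are small secreted proteins that steer the movement of leukocytes and their precursors. They are named by the spacing of their first cysteines (CC, CXC, CX3C and XC), and they act through G protein-coupled receptors that bear the matching names. A few atypical receptors (the Ackr genes) bind chemokines without G protein signalling and scavenge or hold them. In bone and marrow, Cxcl12 from stromal cells retains blood precursors that carry its receptor Cxcr4, and CC chemokines such as Ccl3 and mouse Ccl9 act on osteoclast precursors through Ccr1.

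Control libraries held 34527264 to 40332904 counts and loaded libraries 28435307 to 33616096. Raw counts given below therefore run lower in loaded libraries at an equal level. Markers of several tissues were present beside cartilage. Type II collagen (Col2a1) stood at 1006 ± 40.6 and 1519 ± 45.2 CPM (mean ± SD, n = 3 each, control then loaded). The chondrocyte transcription factor Sox9 was low at 1.34 ± 0.0766 and 2.14 ± 0.760 CPM, and beta globin (Hbb) stood at 65132 ± 6319 and 54771 ± 4264 CPM. CPM here are counts scaled to library size, with TMM factors. A gene was tested if it passed edgeR's count floor, and it was called where the quasi-likelihood test of edgeR gave a Benjamini-Hochberg adjusted p under 0.05 over all 16447 tested genes. Of these, 35.8% were called, 17.9% higher and 18.0% lower in the loaded libraries. With library totals in place of TMM, 63.3% of all calls were rises, against 49.9% with TMM, but the ligand calls below kept the same counts.

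Over ligands and receptors together, 14 of the 38 members past the floor were called (36.8%), close to the 35.8% of all tested genes. The calls lay mostly among ligands, in both directions, with few among receptors. Of 34 ligands, 21 passed the count floor, and 8 of these rose (Ccl3, Ccl6, Ccl9, Ccl21, Cxcl9, Cxcl10, Cxcl16 and Cxcl17) while 4 fell (Cxcl6, Cxcl12, Cxcl13 and Cxcl14). All 12 changed by at least 1.5-fold, a size and call that 9.38% of all tested genes reached upward and 4.49% downward. Every CC ligand that was called rose, and all 4 ligands that fell were CXC ligands. Of 21 receptors, 17 passed the floor, of which Ccr10 rose and Ccr1 fell, and neither call held in every alternative. The median log2 fold change (loaded over control, as throughout) was 0.78 over the 21 ligands and -0.07 over the 17 receptors, against 0.00 over all tested genes. The median absolute log2 fold change was 0.88 for ligands, 0.14 for receptors and 0.27 for all tested genes. These medians cover only members past the floor. Of these, 57.1% of ligands and 11.8% of receptors were called, against 35.8% of all tested genes. The 4 falls are 19.0% of these ligands, close to the 18.0% of all tested genes that fell. Ccl12 (8, 7 and 4 counts in control 1 to 3, 9, 20 and 15 in loaded 1 to 3) passed the floor only through its loaded libraries. It counts in the ligand median and among the ligands without overlap. Cxcl1, with more counts in control libraries, did not pass. Groups did not overlap for 14 of 21 ligands (10 with the loaded libraries above, 4 below) and 2 of 17 receptors (1 above, 1 below), where 47.9% of all tested genes did not overlap, 23.9% with the loaded libraries above and 23.9% below. In bulk RNA, fewer cells of a type cannot be told apart from less of a transcript per cell.

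**Figure D1:**
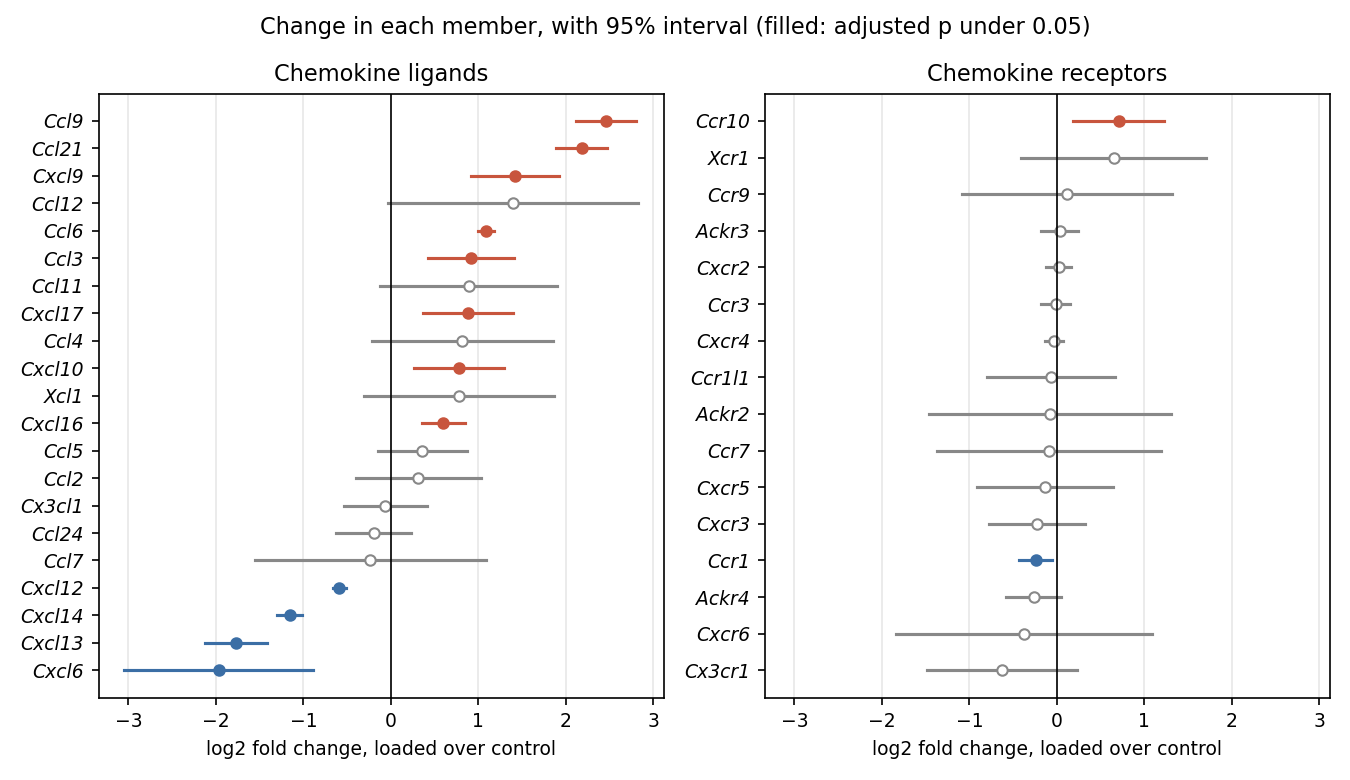
Log2 fold change (loaded over control, edgeR) of the 21 ligands (left) and 16 of the 17 receptors (right) that passed the count floor, with 95% intervals as lines and filled points for an adjusted p under 0.05 (red higher, blue lower in the loaded libraries). Ligands run from -1.97 for Cxcl6 to 2.46 for Ccl9, whereas receptors run from -0.62 for Cx3cr1 to 0.71 for Ccr10.

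Per unit of transcript length, 3 ligands made up most of the transcripts of the 34 ligands in every library. The sums here leave out the platelet CXC chemokine genes Pf4 and Ppbp, whose symbols fall outside the rule. On the deposited FPKM values, which divide by gene length and so allow genes to be compared, Cxcl12, Ccl6 and Cxcl14 together took 86.7% ± 0.349 to 81.5% ± 1.08 of the summed FPKM of the 34 ligands from control to loaded libraries (SD, n = 3 each). The order changed between the groups. Cxcl12 took 40.7%, 41.5% and 40.8% in control 1 to 3 and 23.7%, 23.2% and 23.5% in loaded 1 to 3. Ccl6 took 28.3%, 27.6% and 27.6% in control 1 to 3 and 50.3%, 51.6% and 51.4% in loaded 1 to 3. By FPKM, Ccl6 thus lay below Cxcl12 in every control library and above it in every loaded library. The ratio of Ccl6 to Cxcl12 FPKM was 0.679 ± 0.0153 in control and 2.18 ± 0.0541 in loaded libraries. This change of order rests on the gene lengths behind the FPKM, which are not stated. In CPM, without division by length, Cxcl12 stayed above Ccl6 in the loaded libraries (means of 454 and 251 CPM). The CC ligands of the rule together went from 34.3% ± 0.545 to 63.6% ± 0.376 of the ligand FPKM, of which Ccl6 alone took 27.8% ± 0.386 and 51.1% ± 0.703. The CXC ligands of the rule, nearly all the rest of the same sum, went from 65.1% ± 0.535 to 35.8% ± 0.347. Such shares within a library do not depend on how libraries are scaled. Further down the order Ccl21 went from place 8 to place 4, Ccl9 from place 13 to place 6 and Cxcl13 from place 4 to place 13. The FPKM ranges of the 3 leading ligands did not overlap in either group. In the controls those of Ccl24, Ccl21 and Ccl5 overlapped, as did that of Ccl3 with Ccl24 and that of Ccl9 with Ccl2, Cxcl6 and Cxcl10. In the loaded libraries those of Cxcl16, Ccl9 and Ccl3 overlapped, as did that of Cxcl13 with Ccl24, Cxcl9, Cxcl10 and Ccl2. Places among genes that overlap are not firm. An exact two-sided permutation test of 3 against 3 libraries cannot go below p = 0.1, and the shares of Cxcl12, Ccl6 and Cxcl14 and the ratio each gave that smallest value. The summed ligand FPKM itself stood at 281 ± 2.99 in control and 348 ± 9.69 in loaded libraries, 1.24-fold higher, or 1.17-fold higher when rescaled with TMM.

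Cxcr4 led the receptor transcripts in both groups. It took 63.8% ± 2.17 to 64.4% ± 1.45 of the summed receptor FPKM (exact permutation p = 0.8, two-sided, n = 3 each). Together with Cxcr2 and Ccr1 it made up 87.4% ± 0.466 to 87.2% ± 0.141 of that sum, from control to loaded libraries. Summed receptor FPKM was 225 ± 2.79 in control and 233 ± 14.6 in loaded libraries, and the groups overlapped.

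**Figure D2:**
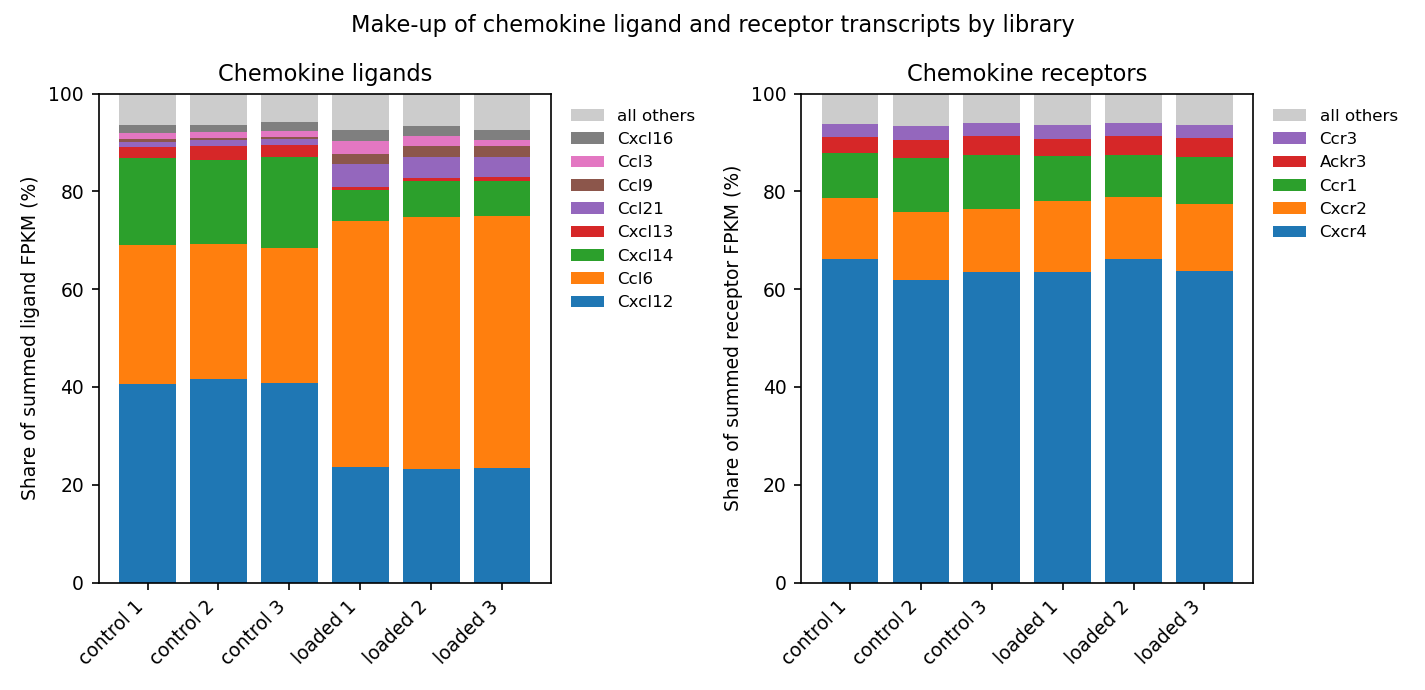
Share (%) of the summed FPKM of all 34 chemokine ligands (left) and all 21 chemokine receptors (right) taken by each named gene, one bar per library. In the ligand panel the mean share is 41.0% in control and 23.5% in loaded libraries for Cxcl12 and 27.8% and 51.1% for Ccl6, and in the receptor panel it is 63.8% and 64.4% for Cxcr4.

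Below the count floor lay 13 ligands and 4 receptors. Ccl25, Ccl26, Ccr8 and Cxcr1 had 0 counts in all 6 libraries, so that their level may lie anywhere below 0.0744 to 0.106 CPM, the worth of 3 counts in each library (counting error only). The T cell and barrier chemokine genes Ccl1, Ccl17, Ccl20, Ccl22, Ccl27 and Ccl28 and the ligands Ccl19, Cxcl1, Cxcl2, Cxcl3 and Cxcl11 had at most 16 counts in a library. Among receptors, Ccr4, which binds Ccl17 and Ccl22, had 2 counts in control 2 and 0 in the other libraries, and Ccr6, which binds Ccl20, had 10, 5 and 15 counts in control 1 to 3 and 0, 11 and 2 in loaded 1 to 3. No statement on a change is made for these 17 genes.

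**Figure D3:**
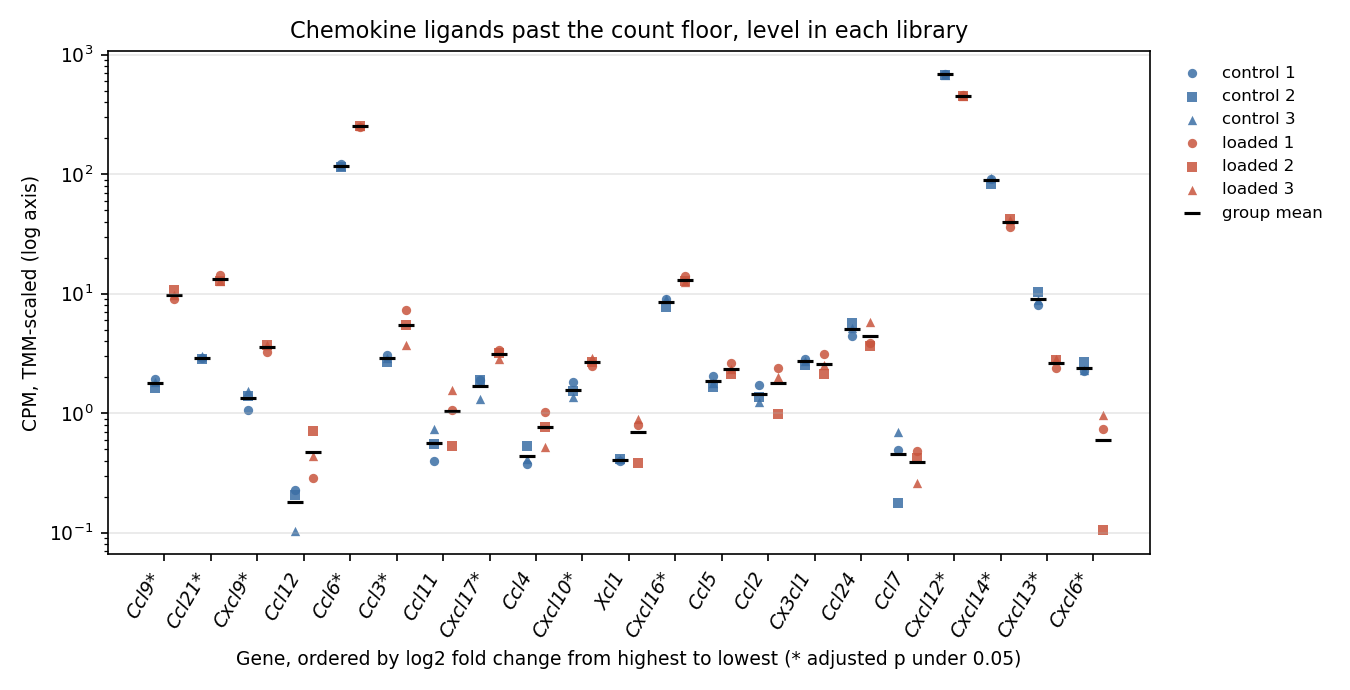
Level (CPM, log axis) of each ligand past the count floor in every library, with the group mean as a bar, ordered from the largest rise to the largest fall. Control (blue) and loaded (red) points separate for Ccl9, Ccl21 and Ccl6 on the left and for Cxcl12, Cxcl14, Cxcl13 and Cxcl6 on the right.

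The 5 CC ligands grouped here as myeloid, Ccl3, Ccl4, Ccl5, Ccl6 and Ccl9, gave 3 rises. The monocyte and eosinophil attractants, CC ligands that also act on myeloid cells, gave no call and are given further below. Ccl6, a rodent CC chemokine that attracts macrophages and other myeloid cells, read 122, 114 and 117 CPM in control 1 to 3 and 248, 254 and 251 CPM in loaded 1 to 3. The loaded libraries all lay above all controls, a 2.13-fold rise (log2 1.09 ± 0.0439 SE, adjusted p = 8.76e-11, edgeR). Ccl9, a related rodent chemokine that in mice is made by myeloid cells and osteoclasts and binds Ccr1, read 1.92, 1.61 and 1.82 CPM in control 1 to 3 and 9.10, 10.7 and 9.66 CPM in loaded 1 to 3. It had the largest rise of any member, 5.51-fold (log2 2.46 ± 0.162, adjusted p = 2.08e-08). The ratio of its FPKM to that of Ccl6 was 0.0160 in control and 0.0415 in loaded libraries. Ccl3, also known as MIP-1 alpha, a ligand of Ccr1, read 3.09, 2.69 and 2.91 CPM in control 1 to 3 and 7.28, 5.44 and 3.68 CPM in loaded 1 to 3. It rose 1.89-fold (log2 0.91 ± 0.229, adjusted p = 0.00590), and the loaded libraries spread widely, with loaded 3 closest to the controls. Ccl4, or MIP-1 beta, had 13 to 18 counts in control and 18 to 32 counts in loaded libraries (log2 0.82 ± 0.484, adjusted p = 0.213). Ccl5, another Ccr1 ligand that T cells and platelets carry, stood at 1.84 ± 0.202 and 2.36 ± 0.242 CPM (log2 0.36 ± 0.239, adjusted p = 0.270), so its groups did not overlap but it missed the threshold.

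In the RefSeq gene order of assembly GRCr8, these 5 genes lie side by side as Ccl5, Ccl9, Ccl6, Ccl3 and Ccl4, with 0 other protein-coding genes between neighbours. Their log2 fold changes in that order were 0.36, 2.46, 1.09, 0.91 and 0.82, so the 3 genes in the middle of the row are the ones that rose. Ccl6 and Ccl9 are related in sequence, and reads that match both may have been split between them. The RefSeq promoter windows (GRCr8, 250 bases before to 50 after the start of the gene, read 5′ to 3′ on the gene's strand) of Ccl9, at chr10:68868828-68869127 on the minus strand, and Ccl6, at chr10:68883317-68883616 on the minus strand, are shown because these neighbours are the CC ligands with the largest rise and with the highest level. Capitals mark a match to the NF-kappaB motif (GGG, any 2 bases, TTTCC) on either strand.
Ccl9: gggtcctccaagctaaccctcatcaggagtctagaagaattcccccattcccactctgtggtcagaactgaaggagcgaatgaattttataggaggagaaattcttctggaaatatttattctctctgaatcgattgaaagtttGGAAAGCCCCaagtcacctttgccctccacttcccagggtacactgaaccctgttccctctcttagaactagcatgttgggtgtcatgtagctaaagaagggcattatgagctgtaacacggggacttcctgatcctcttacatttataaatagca
Ccl6: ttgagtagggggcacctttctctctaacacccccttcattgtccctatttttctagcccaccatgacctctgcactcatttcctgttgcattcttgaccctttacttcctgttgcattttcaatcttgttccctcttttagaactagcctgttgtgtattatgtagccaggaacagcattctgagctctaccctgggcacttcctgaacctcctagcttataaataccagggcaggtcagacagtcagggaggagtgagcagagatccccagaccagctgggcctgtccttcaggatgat
The Ccl9 window has 1 match, on the reverse strand, and the Ccl6 window has 0.

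Neither Ccr1 nor its close relative Ccr1l1 was called higher. Ccr1, the shared receptor of Ccl3, Ccl5 and, in mice, Ccl9, read 43.1, 49.7 and 50.9 CPM in control 1 to 3 and 39.5, 36.4 and 45.2 CPM in loaded 1 to 3, with overlapping groups. It was called lower (log2 -0.24 ± 0.0851, adjusted p = 0.0398, edgeR), but the call was lost with limma-voom (adjusted p = 0.0637), with library totals (adjusted p = 0.176) and without control 2, control 3, loaded 1 or loaded 2 (adjusted p = 0.126 to 0.155). The Ccr1-like gene Ccr1l1 stood at 2.62 ± 0.683 and 2.49 ± 1.31 CPM (adjusted p = 0.903). Beside these results, markers of the myeloid cells that can carry such genes went different ways. The neutrophil and marrow myeloid list, given with Cxcl6 below, was lower in the loaded libraries (2 rose and 9 fell of 12). The eosinophil, mast cell and basophil list summed to 2110.4 to 2294 CPM in control and 3967 to 4073 CPM in loaded libraries, and 9 rose and 0 fell of 10. The osteoclast list summed to 731 to 763 CPM in control and 1144 to 1203 CPM in loaded libraries (3 rose and 0 fell of 8). The monocyte and macrophage list was mixed (5 rose and 6 fell of 13, Marco at 0 in every library) and summed to 15852 to 16294 CPM in control and 11738 to 11963 CPM in loaded libraries. The lysozyme gene Lyz2 made up 90.7% to 93.7% of that sum, and without it the list summed to 1015 to 1033 CPM in control and 1064 to 1101 CPM in loaded libraries, so that the direction turned. Complement genes C1qa, C1qb and C1qc, Cd68 and Ly6c rose, and Csf1r, Cd14, Mrc1, Cd163 and Itgam fell with Lyz2. The part of these cells in the rise of Ccl6, Ccl9 and Ccl3 was not tested.

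Cxcl12 and Cxcl14, CXC ligands that stromal cells make constitutively, fell. Cxcl12, the ligand that holds Cxcr4-bearing blood precursors in marrow, read 695, 676 and 683 CPM in control 1 to 3 and 461, 449 and 453 CPM in loaded 1 to 3. Every loaded library lay below every control, with 1.51-fold more Cxcl12 in the controls (log2 -0.59 ± 0.0343, adjusted p = 5.13e-09, edgeR) and little spread within either group. Cxcl14, a chemokine of epithelial and stromal tissues whose receptor is not settled, read 91.0, 83.0 and 92.5 CPM in control 1 to 3 and 35.9, 41.9 and 41.7 CPM in loaded 1 to 3. It was 2.23-fold lower in the loaded libraries (log2 -1.16 ± 0.0676, adjusted p = 6.77e-09), without overlap.

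Neither receptor of Cxcl12 was called. Cxcr4, the signalling receptor of Cxcl12, read 291, 262 and 274 CPM in control 1 to 3 and 256, 269.7 and 282 CPM in loaded 1 to 3. The groups overlapped, and the 95% interval of the log2 fold change was -0.14 to 0.07 (adjusted p = 0.647). Ackr3, the atypical receptor that scavenges Cxcl12, read 16.6, 16.9 and 17.8 CPM in control 1 to 3 and 15.9, 17.4 and 19.1 CPM in loaded 1 to 3, again with overlap and an interval of -0.18 to 0.24 (adjusted p = 0.845). The ratio of Cxcl12 to Cxcr4 FPKM was 0.802 ± 0.0313 in control and 0.545 ± 0.0320 in loaded libraries (exact permutation p = 0.1, two-sided, the smallest possible, n = 3 each). Markers of marrow stromal and perivascular cells, which are known sources of Cxcl12, summed to 272 to 276 CPM in control and 252 to 273 CPM in loaded libraries and overlapped (2 rose and 2 fell of 8), but without Vcam1, its most abundant gene, to 134 to 139 CPM in control and 146 to 163 CPM in loaded libraries, without overlap. Within that list the leptin receptor gene Lepr stood at 13.2 ± 1.77 and 12.0 ± 1.06 CPM (adjusted p = 0.438). Kitlg, the stem cell factor gene, stood at 31.3 ± 1.36 and 31.9 ± 4.79 CPM (adjusted p = 0.852), while Vcam1 fell from 138 ± 3.20 to 108 ± 2.14 CPM (adjusted p = 3.13e-05). The 2 genes that rose are others of that list. The adipocyte list, of another stromal cell, summed to 218 to 229 CPM in control and 106 to 121 CPM in loaded libraries (0 rose and 6 fell of 7). Their part in the fall of Cxcl12 and Cxcl14 was not tested.

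The chemokines that guide lymphocytes in lymphoid tissue moved in opposite directions. Ccl21, which draws T cells and dendritic cells through Ccr7 and is known from lymphatic endothelium and lymph node stroma, read 2.89, 2.83 and 2.99 CPM in control 1 to 3 and 14.3, 12.7 and 12.6 CPM in loaded 1 to 3. All loaded libraries lay above all controls, 4.54-fold higher (log2 2.18 ± 0.135, adjusted p = 9.93e-09, edgeR). Cxcl13, which draws B cells through Cxcr5, read 7.99, 10.3 and 8.77 CPM in control 1 to 3 and 2.36, 2.77 and 2.81 CPM in loaded 1 to 3. It was 3.41-fold lower in the loaded libraries (log2 -1.77 ± 0.164, adjusted p = 8.37e-07), and the groups did not overlap. Ccl19, the other Ccr7 ligand, had 4, 0 and 5 counts in control 1 to 3 and 2, 13 and 0 in loaded 1 to 3, below the floor.

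The matching receptors gave no calls. Ccr7 had 19, 16 and 26 counts in control 1 to 3 and 11, 30 and 7 in loaded 1 to 3 (adjusted p = 0.932), and its 95% interval of -1.37 to 1.19 is too wide to exclude a change of 2-fold either way. Cxcr5 stood at 1.43 ± 0.445 and 1.30 ± 0.457 CPM (adjusted p = 0.809, interval -0.92 to 0.64). Ackr4, the atypical receptor that removes Ccl19 and Ccl21, stood at 6.26 ± 0.402 and 5.21 ± 0.261 CPM (log2 -0.26 ± 0.146, adjusted p = 0.182), where all loaded libraries lay below all controls but the threshold was missed. In the endothelial list 2 rose and 4 fell of 8, with a median log2 fold change of -0.03. Emcn and Cldn5 rose, and Kdr, Tie1, Vwf and Stab2 fell, the last, a scavenger receptor of sinusoids, from 11.4 ± 1.11 to 3.11 ± 0.179 CPM. A lymphatic endothelial list chosen after the values of Ccl21 were seen (Prox1, Lyve1, Flt4, Mmrn1 and Reln, of which all but Prox1 passed the floor) summed to 73.0 to 79.7 CPM in control and 34.8 to 37.3 CPM in loaded libraries, and 0 rose and 4 fell of 4. Ccl21 rose while these genes, several of which sinusoidal endothelium also expresses, fell. Mmrn1 made up 56.2% to 66.1% of their summed CPM. Without Mmrn1 the sum was 25.3 to 27.0 CPM in control and 14.1 to 15.9 CPM in loaded libraries. The B cell list summed to 185 to 189.9 CPM in control and 210.1 to 218 CPM in loaded libraries (2 rose and 1 fell of 8) and the T and NK cell list to 431 to 449 CPM in control and 259 to 290.2 CPM in loaded libraries (1 rose and 3 fell of 11). Nkg7 made up 78.7% to 86.5% of the T and NK cell sum, and the groups overlapped without it (59.5 to 61.7 CPM in control and 54.2 to 61.9 CPM in loaded libraries). The part of these cells in the changes of Ccl21 and Cxcl13 was not tested. RefSeq lists Ccl21b as an older name of this gene, and reads of near-identical Ccl21 copies may be split or shared.

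Both measurable ligands of Cxcr3, the receptor of activated T and NK cells, rose from low levels. Cxcl9 read 1.06, 1.40 and 1.53 CPM in control 1 to 3 and 3.26, 3.72 and 3.74 CPM in loaded 1 to 3, a 2.68-fold rise without overlap (log2 1.42 ± 0.237, adjusted p = 2.60e-04, edgeR). Cxcl10 read 1.80, 1.52 and 1.36 CPM in control 1 to 3 and 2.46, 2.70 and 2.87 CPM in loaded 1 to 3, a 1.72-fold rise, also without overlap (log2 0.78 ± 0.242, adjusted p = 0.0206). The call of Cxcl10 was lost without control 2, control 3 or loaded 3 (adjusted p = 0.0556 to 0.0905). Cxcl11, the third ligand, had at most 10 counts in a library. Cxcr3 itself stood at 2.45 ± 0.570 and 2.10 ± 0.399 CPM with overlapping groups (adjusted p = 0.540, interval -0.77 to 0.32).

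Cxcl9 is classically induced by interferon gamma, and Cxcl10 also by type I interferons. The interferon gamma gene Ifng had 0 counts in all 6 libraries (up to 0.0744 to 0.106 CPM). In the list of interferon-linked inducers 3 rose and 2 fell of 8. Irf7, which amplifies type I interferon signalling, rose by 2.31 ± 0.0469 on the log2 scale, Irf9, a subunit of the type I interferon transcription complex, by 0.46 ± 0.0615, and its partner Stat2 by 0.29 ± 0.0516. The interferon gamma receptor chain gene Ifngr1 fell by 0.42 ± 0.0456 (adjusted p = 4.57e-06) and Irf1, a main target of interferon gamma, fell by 0.19 ± 0.0596 (adjusted p = 0.0242). The promoter windows of Cxcl10, at chr14:15988816-15989115 on the plus strand, and Cxcl9, at chr14:16006916-16007215 on the plus strand, are shown because these neighbouring genes rose together. Capitals mark a match to the interferon-stimulated response element, ISRE (GAAA, any 2 bases, GAAA) on either strand.
Cxcl10: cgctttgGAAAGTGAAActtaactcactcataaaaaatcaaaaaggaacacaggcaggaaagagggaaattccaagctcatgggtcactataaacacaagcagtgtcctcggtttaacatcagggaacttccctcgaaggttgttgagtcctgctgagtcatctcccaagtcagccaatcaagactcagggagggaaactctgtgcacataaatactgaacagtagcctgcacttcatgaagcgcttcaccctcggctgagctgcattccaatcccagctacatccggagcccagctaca
Cxcl9: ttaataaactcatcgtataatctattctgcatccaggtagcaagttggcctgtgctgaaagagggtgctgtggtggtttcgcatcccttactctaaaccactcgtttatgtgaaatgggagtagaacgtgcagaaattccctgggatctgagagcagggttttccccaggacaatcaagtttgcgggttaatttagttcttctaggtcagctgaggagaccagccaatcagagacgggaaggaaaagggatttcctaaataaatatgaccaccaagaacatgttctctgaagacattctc
The Cxcl10 window has 1 match, on its forward strand, with its first base at position -243 when the start site counts as 0. The Cxcl9 window has 0 matches to these letters.

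Among the genes of the symbol rule, the CXC ligands of neutrophils were low, and the only member that could be tested fell. Cxcl6, for which RefSeq also lists the name Cxcl5 in rat, attracts neutrophils through Cxcr2. It had 78, 91 and 90 counts in control 1 to 3 and 23, 3 and 33 in loaded 1 to 3, that is 2.23, 2.66 and 2.30 CPM in control 1 to 3 and 0.735, 0.105 and 0.957 CPM in loaded 1 to 3. The level was 4.00-fold lower in the loaded libraries (log2 -1.97 ± 0.491, adjusted p = 0.00843, edgeR), without overlap, and loaded 2 was lowest. The log2 fold change was -1.49 without loaded 2 and -2.48 without loaded 3, and the call held in both. The other neutrophil attractants of the rule, Cxcl1, Cxcl2 and Cxcl3, had at most 16, 12 and 5 counts in a library. Cxcr2, their main receptor and the second most abundant receptor here, stood at 42.4 ± 1.82 and 43.0 ± 3.21 CPM (interval of the log2 fold change -0.12 to 0.16, adjusted p = 0.834), and Cxcr1 had 0 counts. The neutrophil and marrow myeloid list summed to 47495 to 52078 CPM in control and 33334 to 39985 CPM in loaded libraries (2 rose and 9 fell of 12). Its part in the fall of Cxcl6 was not tested.

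In the RefSeq order the platelet chemokine genes Pf4 and Ppbp lie between Cxcl3 and Cxcl6. Their symbols fall outside the rule, but they encode CXC chemokines released by platelets. Pf4 read 299.8, 247 and 309 CPM in control 1 to 3 and 139.7, 153 and 138 CPM in loaded 1 to 3 and fell (log2 -0.99 ± 0.0856, adjusted p = 4.00e-05, edgeR). Ppbp read 289, 288 and 281 CPM in control 1 to 3 and 166, 174 and 159 CPM in loaded 1 to 3 and fell as well (log2 -0.78 ± 0.0439, adjusted p = 3.52e-09). The platelet and megakaryocyte list, which holds both, summed to 849.9 to 903 CPM in control and 460.2 to 503 CPM in loaded libraries (0 rose and 7 fell of 8). The promoter window of Cxcl6, at chr14:17596368-17596667 on the minus strand, is shown as that of the ligand with the largest fall, with capitals for a match to the NF-kappaB motif.
Cxcl6: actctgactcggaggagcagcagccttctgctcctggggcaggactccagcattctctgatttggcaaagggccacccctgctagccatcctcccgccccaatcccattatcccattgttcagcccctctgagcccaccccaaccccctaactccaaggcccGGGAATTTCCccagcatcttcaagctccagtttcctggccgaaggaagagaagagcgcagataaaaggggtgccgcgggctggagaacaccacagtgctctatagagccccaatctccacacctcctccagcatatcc
It has 1 match, on the forward strand, with its first base at position -88.

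The monocyte attractants gave no call. Ccl2, or MCP-1, which draws monocytes through Ccr2, read 1.72, 1.37 and 1.23 CPM in control 1 to 3 and 2.36, 0.982 and 2.00 CPM in loaded 1 to 3, with loaded 2 below all controls and loaded 1 and loaded 3 above them (log2 0.31 ± 0.336, adjusted p = 0.511, edgeR). Ccl7, a related ligand, had 6 to 27 counts in control and 9 to 15 in loaded libraries (adjusted p = 0.809). Ccl12, known in mice as MCP-5, had 4 to 8 and 9 to 20 counts, with a log2 fold change of 1.40 ± 0.668 that missed the threshold (adjusted p = 0.123). No row carries the symbol Ccr2. A feature named AABR07071838.1, which a second annotation column of the table calls Ccr2, had 41, 56 and 57 counts in control and 86, 58 and 61 in loaded libraries (log2 0.62 ± 0.280, adjusted p = 0.105). It was looked up after the values were seen.

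The eosinophil attractants also gave no call, while markers of eosinophils rose. Ccl24, or eotaxin-2, read 4.41, 5.72 and 5.14 CPM in control 1 to 3 and 3.83, 3.61 and 5.83 CPM in loaded 1 to 3 (log2 -0.20 ± 0.202, adjusted p = 0.490, edgeR). Ccl11, or eotaxin, had 14 to 29 counts in control and 15 to 54 in loaded libraries (log2 0.89 ± 0.474, adjusted p = 0.165), and it passed without loaded 2 (log2 1.20, adjusted p = 0.0494). Ccr3, the eotaxin receptor of eosinophils, read 21.5, 22.0 and 21.8 CPM in control 1 to 3 and 21.7, 21.3 and 21.7 CPM in loaded 1 to 3, with an interval of -0.18 to 0.16 for its log2 fold change (adjusted p = 0.918). By contrast, the eosinophil granule genes Prg2 and Epx rose by 0.82 ± 0.0390 and 0.82 ± 0.0355, and the interleukin-5 receptor gene Il5ra by 1.38 ± 0.164, on the log2 scale.

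The membrane-bound and mucosal ligands split. Cxcl16, made as a membrane protein that also binds oxidised lipoprotein, read 9.02, 7.68 and 9.08 CPM in control 1 to 3 and 13.9, 12.8 and 12.4 CPM in loaded 1 to 3 and rose 1.52-fold without overlap (log2 0.60 ± 0.116, adjusted p = 8.82e-04, edgeR). Its receptor Cxcr6, of T cell subsets, had 18, 4 and 21 counts in control 1 to 3 and 11, 11 and 6 in loaded 1 to 3 (adjusted p = 0.716). Cx3cl1, or fractalkine, the other membrane-bound ligand, stood at 2.70 ± 0.149 and 2.59 ± 0.483 CPM (adjusted p = 0.862), and its receptor Cx3cr1, of monocytes and macrophages, at 1.22 ± 0.364 and 0.791 ± 0.249 CPM (log2 -0.62 ± 0.400, adjusted p = 0.252). Cxcl17, a mucosal chemokine, read 1.89, 1.90 and 1.30 CPM in control 1 to 3 and 3.39, 3.16 and 2.81 CPM in loaded 1 to 3 and rose 1.84-fold (log2 0.88 ± 0.240, adjusted p = 0.00992), but the call was lost without control 3 (adjusted p = 0.0576). Xcl1, of activated T and NK cells, and its receptor Xcr1, of cross-presenting dendritic cells, had 11 to 31 and 12 to 26 counts per library and gave no call (adjusted p = 0.262 and 0.340).

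Ccr10, the receptor of Ccl27 and Ccl28, was the receptor with a rise. It read 1.97, 1.84 and 1.71 CPM in control 1 to 3 and 2.20, 3.37 and 3.45 CPM in loaded 1 to 3, so that loaded 1 lay closest to the controls (log2 0.71 ± 0.244, adjusted p = 0.0348, edgeR). The call was lost with limma-voom (adjusted p = 0.0545) and without any library other than loaded 1 (adjusted p = 0.0724 to 0.115). Ccr9, the Ccl25 receptor of gut-homing T cells, and Ackr2, which scavenges inflammatory CC chemokines, had 4 to 22 counts per library and gave no call (adjusted p = 0.900 and 0.942). In the order of FPKM in control libraries Cxcr4 led (144 ± 5.49 FPKM in control and 149.9 ± 7.49 FPKM in loaded libraries), followed by Cxcr2 (29.4 ± 1.92 FPKM in control and 31.8 ± 3.15 FPKM in loaded libraries) and Ccr1 (23.7 ± 2.30 FPKM in control and 21.3 ± 2.74 FPKM in loaded libraries). The ranges of Cxcr2 and Ccr1 did not overlap in either group. Ackr3, Ccr3, Ackr4 and Ccr1l1 followed in that order in both groups, and the FPKM ranges of Ackr4 and Ccr1l1 overlapped.

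**Figure D4:**
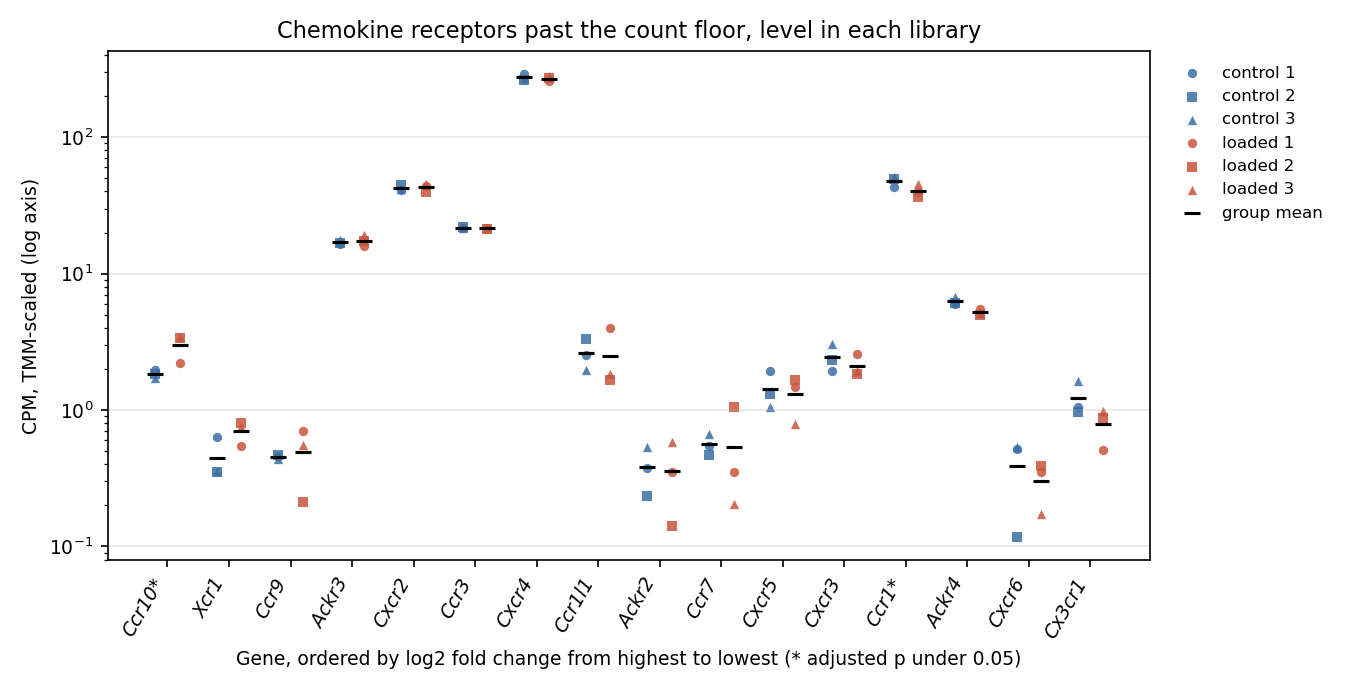
Level (CPM, log axis) of 16 of the 17 receptors past the count floor in every library, with the group mean as a bar, ordered by log2 fold change. Control and loaded points lie at nearly the same height for the abundant receptors Cxcr4, Cxcr2, Ccr1, Ccr3 and Ackr3, and the receptors near 0.5 CPM scatter widely.

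A RefSeq promoter window was at hand for 42 of the 55 members. The NF-kappaB letters were found in 6 of the 42 (14.3%), namely Ccl9, Ccl20, Ccr3, Cxcl1, Cxcl2 and Cxcl6, and in 1.53% of 33469 windows of the same length. Among these 6, Ccl9 rose, Cxcl6 fell, Ccr3 was not called and the other 3 were below the count floor. The ISRE letters were found in 2 of the 42 (Ccl19 and Cxcl10) and in 3.92% of all windows. A match to letters does not show that a factor binds there.

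Other genes of the chemokine pathway were read in lists against the 17.9% and 18.0% of all tested genes that rose and fell. Among genes of G protein signalling downstream of the receptors 0 rose and 7 fell of 19. The small GTPase genes Rac1 and Rac2 fell by 0.53 ± 0.0378 and 0.29 ± 0.0323 on the log2 scale, and Vav1, an exchange factor for Rac, fell by 0.48 ± 0.0535. Among genes of receptor desensitisation and trafficking 1 rose and 3 fell of 13, with the receptor kinase gene Grk6 (log2 -0.36 ± 0.0410) and Rgs19 (log2 -0.35 ± 0.0538) lower and Rgs18 (0.28 ± 0.0838) higher. Among integrins, selectins and their partners 1 rose and 7 fell of 13, led by the integrin genes Itgam (-0.73 ± 0.0464), Itgb7 (-0.60 ± 0.0490) and Itgb2 (-0.39 ± 0.0428). Several of these genes are expressed in most leukocytes.

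Genes that cut or present chemokines went both ways (6 rose and 3 fell of 16). The gelatinase gene Mmp9 rose from 198 ± 2.07 to 534 ± 9.33 CPM, whereas the neutrophil protease genes Ctsg and Elane fell from 1869.9 ± 22.9 to 1265 ± 28.2 CPM and from 838 ± 30.0 to 554 ± 29.6 CPM. Among genes of NF-kappaB signalling 1 rose and 5 fell of 16. The adaptor gene Myd88 and the TNF receptor gene Tnfrsf1a fell (log2 -0.38 ± 0.0514 and -0.31 ± 0.0507) and Tlr2 rose (0.27 ± 0.0560). Among chemokine-family genes outside the symbol rule 2 rose and 4 fell of 10, and beside Pf4 and Ppbp the smallest adjusted p was that of Cmtm7, which fell (log2 -0.43 ± 0.0509).

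**Figure D5:**
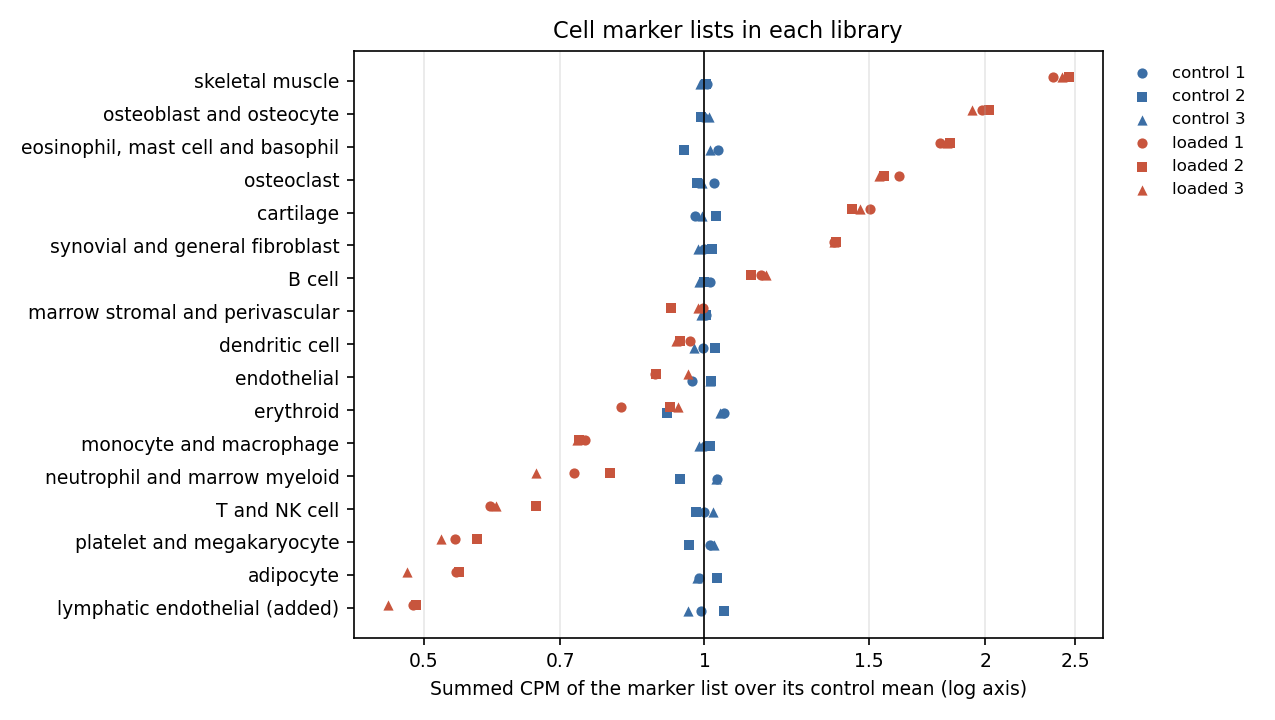
Summed CPM of each cell marker list divided by its mean in the control libraries (log axis), one point per library, with control in blue and loaded in red. Eosinophil, osteoclast, bone, cartilage and muscle lists lie above 1 in the loaded libraries, and platelet, adipocyte and neutrophil lists lie below 1, as does the monocyte list, whose sum is 90.7% to 93.7% Lyz2 and whose other genes together lie above 1.

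Other lists that moved with the groups were those of skeletal muscle, at 6157 to 6263 CPM in control and 14728 to 15289 CPM in loaded libraries (8 rose and 0 fell of 8), of osteoblasts and osteocytes, at 2966 to 3021 CPM in control and 5796 to 6041 CPM in loaded libraries (7 rose and 0 fell of 9), and of synovial and general fibroblasts, at 677 to 700.5 CPM in control and 948 to 953 CPM in loaded libraries (5 rose and 2 fell of 8). The cartilage list summed to 1549.7 to 1631 CPM in control and 2283 to 2384 CPM in loaded libraries (5 rose and 0 fell of 10). The erythroid list overlapped between groups (0 rose and 2 fell of 7) and the dendritic cell list gave 1 call (0 rose and 1 fell of 8). Leaving out the most abundant gene of a list, a choice made after the values were seen, changed how the groups lay in the monocyte, stromal, T and NK cell and endothelial lists, and in none of the other lists drawn. Among the 55 members, 28 had a DESeq2 value in the authors' deposited table, 14 of them at a false discovery rate under 0.05, and these 14 are the members called here, in the same directions.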

How the data were processed

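RNA of knee articular cartilage from 3 control and 3 loaded rat libraries was made into mRNA libraries from 1 μg of RNA and sequenced, per the labels' protocols. The authors deposited 1 table with raw counts and FPKM per gene and library, per the file headers. HISAT2, DESeq2 and the build mm10 are named without versions in the submitters' processing notes, while the gene identifiers are rat Ensembl ones. The counter, annotation release and strand setting are not stated, so reads of overlapping or antisense genes cannot be told apart and no coordinates are taken from the table. The authors' deposited fold changes and false discovery rates on the log2 scale were only copied.

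Of 26991 lines, 10 were spilled text and were dropped, leaving 26981 features. Counts were scaled with TMM (factors 0.961 to 1.05), filtered with filterByExpr, which kept 16447 genes, and tested with edgeR 4.0.16 (robust quasi-likelihood F test, two-sided, Benjamini-Hochberg adjustment, threshold 0.05) in R 4.3.3. The SE of a log2 fold change is its size divided by the square root of F. The steps were tested on simulated data. Alternatives were DESeq2 1.42.0, limma-voom (limma 3.58.1), other scalings, floors and thresholds, each library left out, and a replicate block. All 55 members matched RefSeq (GRCr8), which gave promoter windows and gene order. Members, lists and motifs were chosen with earlier results of these data known. Genes that changed by at least 1.5-fold and were called are given in every library, with Cxcl12, Cxcr4 and Ackr3, and up to 3 called genes per pathway list are named by adjusted p. A receptor that is in the counts and medians is not reported here by itself. The 95% intervals come from the edgeR fit and hold the spread between libraries, while floors of 3 counts cover counting error only.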

Additional observations from a re-analysis of the deposited data

How the results depend on the processing

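Ligand calls changed little. In all 16 alternatives 4 ligands were called lower, and 6 (without control 3) to 9 (without loaded 2) were called higher. The 1 receptor called higher became 0 with limma-voom, with the replicate block and at an adjusted p under 0.01, and ranged from 0 to 1 when 1 library was left out. The 1 receptor called lower became 0 with limma-voom, with library totals and at an adjusted p under 0.01, and again ranged from 0 to 1 when 1 library was left out. Over all genes the number called was 4071 at an adjusted p under 0.01, 6947 under 0.1 and 5349 with the replicate block, against 5895. Of the 38 members past the floor, 33 kept their side of the threshold throughout, and 10 of the 14 called members kept their call. No called member changed sign, but 11 members that were not called changed the sign of their log2 fold change in at least 1 alternative, so no direction is read from those. The members that changed side were Ccr1, Ccr10, Cxcl10 and Cxcl17, which lost the call in at least 1 alternative, and Ccl11, which gained it without loaded 2. Titles share the numbers 1 to 3, but correlations of the deviations of same-numbered libraries were -0.01, 0.05 and 0.02, so the numbers were not taken to pair them. With the block Ccr10 had an adjusted p of 0.0694 (edgeR). Members with few counts have wide intervals, and a change in them may not be detectable at this depth. The causes of lost calls were not tested.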
